A study of Leptinotarsa decemlineata with 61 samples.

Results

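A set of 254 genes, among the 15578 genes of the Colorado potato beetle (Leptinotarsa decemlineata) expression table, had high transcript levels in the adult ovary and little or no transcript in laid fertilized eggs. The genes were chosen by mean TPM (a read count corrected for gene length and scaled to one common library total). A gene had to reach a mean of 20 TPM in ovaries and at least 4 times the mean of each of the other 11 dissected groups, and its mean in eggs had to stay below 10% of its ovary mean. The first 2 conditions were met by 305 genes, 1.96% of the table, of which 254 fell below the egg limit and 51 did not. All beetles came from the E06 strain. The fertilized eggs formed 3 libraries, each of 5 pooled eggs, and whole larvae of the first instars (L1, L2, L3) formed 3 libraries per instar, each of 3 pooled larvae. Ovaries formed 3 libraries (replicates 1, 2 and 4), each from a single adult female dissected 7 days after emergence. The other dissected groups were testes, aedeagus, genital ducts, fat body, midgut, hindgut and malpighian tubules of adults (the last 4 from both sexes), and fat body (white and yellow), midgut, hindgut and hemolymph of L4 larvae, the last instar, dissected on day 19 of development. Each of these came from single individuals, with 3 libraries per sample type and 2 for each L4 fat body type. The adults were held in individual dishes, and the sources used here do not state their mating status or the age of the eggs.

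An insect ovary holds germline cells, which become oocytes and in beetles also the nurse cells that feed them, and somatic follicle cells, which enclose each growing oocyte. Transcripts made in the germline are loaded into the oocyte and laid down in the egg, where they serve the early embryo. Transcripts of follicle cells, among them those of the eggshell layers secreted late in egg formation, are generally left behind in the ovary when the egg is laid. The table gives each gene by an identifier only, with no gene name that the sources used here pair with it, so no role is stated for any gene below, and neither eggshell nor germline markers could be used to check the ovary label. Fewer cells of a type and less RNA per cell cannot be told apart in these bulk libraries.

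The libraries held 9913155 to 18579970 read pairs assigned to genes, 15905474 to 18579970 in ovaries and 13428349 to 16688984 in eggs. At this depth 1 read pair corresponds to 0.0499 to 0.122 TPM for a gene of median length. A female hindgut library and a yellow fat body library were removed from the atlas by the authors and were left out of all group means. The tissue entry of the sample labels disagreed with the sample titles for most libraries, and groups follow the titles, which match the library names. Nothing in the sources states whether replicate libraries shared a clutch or a rearing batch.

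The 254 genes made up a large part of the ovary transcriptome. Their summed level was 617811 TPM in ovary replicate 1, 436255 TPM in replicate 2 and 327025 TPM in replicate 4, which is 61.8%, 43.6% and 32.7% of each library. In the 3 egg libraries the sum was 352, 444 and 464 TPM. In testes, the next dissected group, it was 1115 to 1129 TPM. Every ovary library lay far above every other library. The selection required this of ovary means against the other dissected groups and eggs, though not of single libraries or whole larvae. The median gene of the set had an ovary mean of 153 TPM, against 79.9 TPM for the 51 genes that met only the first 2 conditions. These 51 are called kept in eggs below for their egg level alone. In 5 of them the egg mean was above the ovary mean, at most 269% of it, and the origin of egg transcripts was not tested. Of the 102 genes of the table with an ovary mean above 1000 TPM, 22 belonged to the set, and so did the 7 highest genes of the table. The others spread down to 21.1 TPM, with 137 genes between 100 and 1000 TPM and 95 below 100 TPM.

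**Figure D1:**
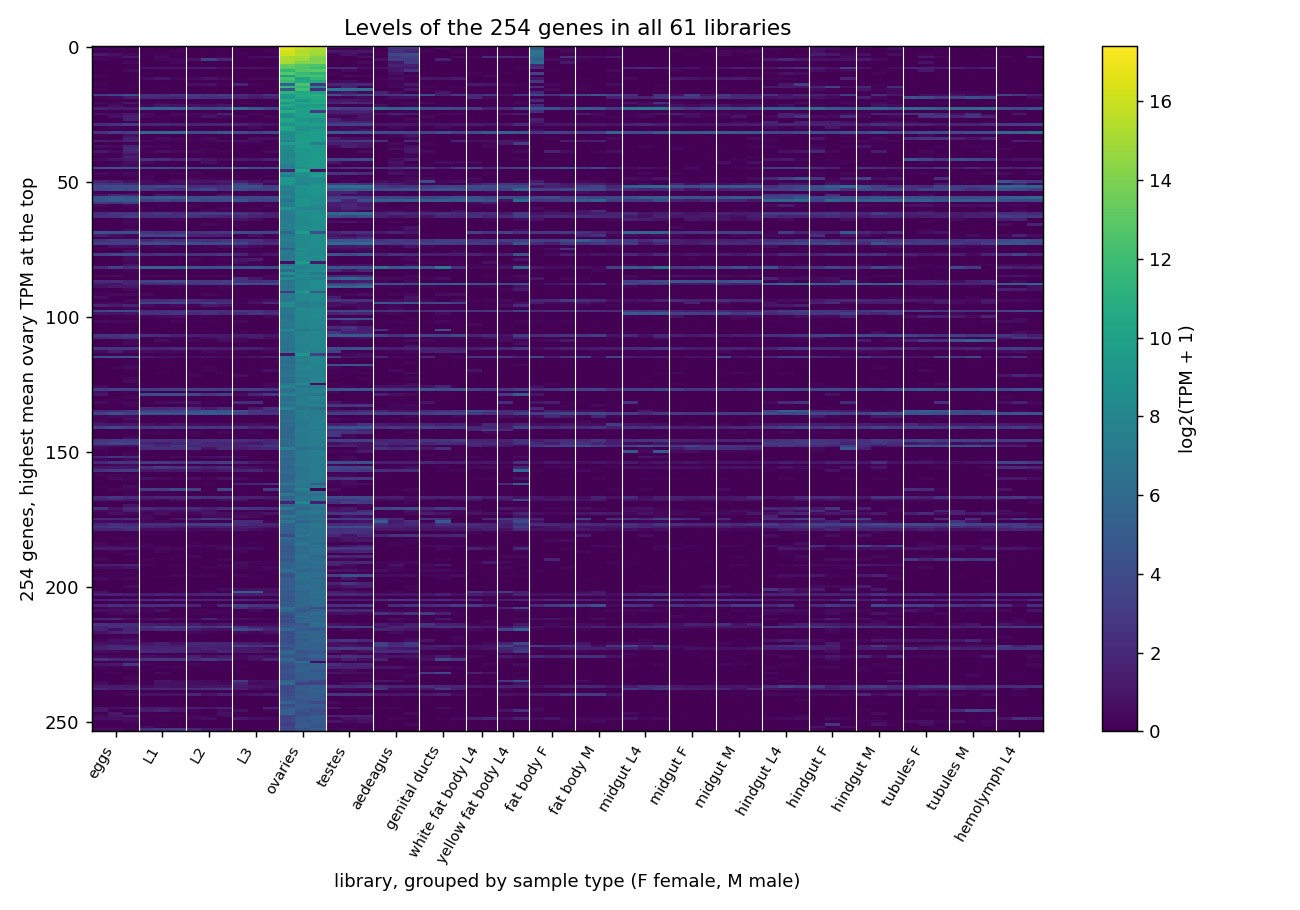
Level of each of the 254 genes (rows, highest mean ovary TPM at the top) in each of the 61 libraries (columns, grouped by sample type; the colour is log2(TPM + 1)). The 3 ovary libraries stand out in almost every row, while faint horizontal lines mark genes with a low level in all sample types, and female fat body replicate 2 shows a light patch at the genes with the highest ovary levels.

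The most abundant gene was LdNA_16353, a gene of 7 exons and 408 bp of exon length on chromosome 8 (10696117 to 10700164, plus strand; coordinates are those of the deposited table, whose genome build is not named in the sources used here). It had no read pair in any of the 3 egg libraries, against 174214, 113980 and 78254 TPM in ovary replicates 1, 2 and 4. A limit of 3 read pairs over the 3 egg libraries places its level at least 583484-fold lower in eggs than in ovaries. LdNA_15163 (chromosome 7, 37461093 to 37464287, minus strand, 9 exons) had 0.237, 0.167 and 0.124 TPM in eggs, against 94509, 55789 and 40676 TPM in ovaries. Both genes held a leading place in every ovary library and had few or no read pairs in eggs. LdNA_16149 (chromosome 8, 28 exons) had 0.0360, 0.0424 and 0.0471 TPM in eggs, against 82426, 41487 and 34956 TPM in ovaries. LdNA_19852 (chromosome 10, 7 exons) had 1.42, 0.758 and 0.337 TPM in eggs and 72872, 43167 and 30306 TPM in ovaries. In both genes ovary replicate 1 was the highest and replicate 4 the lowest of the ovaries.

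LdNA_17325 averaged 0.605 TPM in eggs and 30668 ± 9926 TPM in ovaries, and LdNA_29990 averaged 0.0942 TPM in eggs and 26955 ± 11906 TPM in ovaries (SD, n = 3 each). LdNA_2724 and LdNA_2725, neighbours on chromosome 1, averaged 0.146 and 0 TPM in eggs and 23879 ± 10377 and 7459 ± 2419 TPM in ovaries (SD, n = 3). LdNA_27788 averaged 0.0199 TPM in eggs and 6259 ± 2503 TPM in ovaries (SD, n = 3). LdNA_2281, the lowest of the 10, had 0.0605, 0 and 0.475 TPM in eggs, against 2726, 7142 and 8473 TPM in ovary replicates 1, 2 and 4, so that here replicate 1 was the lowest ovary. In the other 9 genes replicate 1 was the highest, and replicate 4 the lowest except in LdNA_2724, where replicate 2 was (17685 TPM, against 18093 TPM in replicate 4). Among these 10 genes the egg mean was at most 0.00292% of the ovary mean. Together they took 559013, 352907 and 254720 TPM of ovary replicates 1, 2 and 4, and the remaining 244 genes 58798, 83348 and 72305 TPM.

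Because TPM is a share of the library, genes this abundant lower the TPM of every other ovary gene. Scaling factors from the median of gene-wise ratios over the 3 ovary libraries were 0.666, 1.13 and 1.33 for ovary replicates 1, 2 and 4, and differed little (0.668, 1.13 and 1.33) when the 254 genes were left out of their estimation. For the rule itself, such factors were computed over all 61 libraries. With values divided by those factors the same rule selected 220 genes, of which 219 belong to the set.

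Most of the set was close to undetectable in eggs. In 31 genes no read pair was found in any egg library, in 56 genes there were 1 to 3 read pairs over the 3 libraries, and in 167 genes more. For the 31 genes, the limit of 3 read pairs over the egg libraries gives levels at least 68.3-fold to at least 583484-fold lower in eggs than in ovaries, with a median limit of 1121-fold. The median egg level over the set was 0.136% of the ovary level, and the quartiles were 0.0271% and 1.01%. The egg mean was below 1% of the ovary mean in 189 genes, from 1% to below 5% in 44 and from 5% to below 10% in 21. An egg mean above 1 TPM was found for 68 genes and above 10 TPM for 11. As background, 8.19% of the 5237 genes with an ovary mean of at least 20 TPM had an egg mean below 10% of the ovary mean. Egg levels chose the genes, so none of these values was tested.

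**Figure D2:**
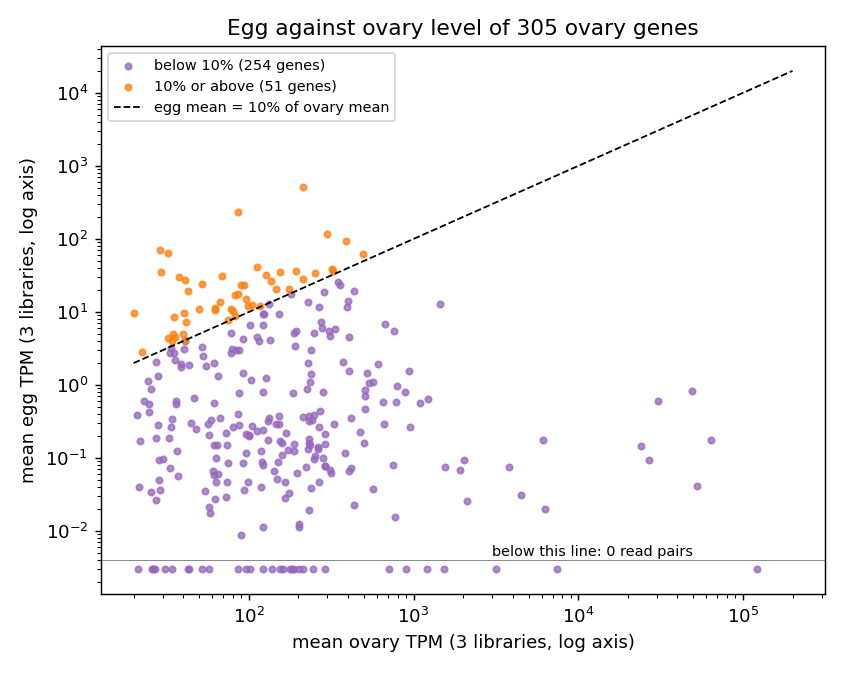
Mean egg TPM (vertical, log axis) against mean ovary TPM (horizontal, log axis) of the 305 ovary genes, 3 libraries each. The 254 genes lie below the dashed line at 10%, the 51 others on or above it, and the points under the grey line are genes with 0 read pairs in all eggs, among them the most abundant ovary gene.

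The genes of the set with the highest egg means were single genes of moderate ovary level. LdNA_13628, a gene of 1 exon on chromosome 6, had 19.3, 30.7 and 27.6 TPM in eggs, against 107, 565 and 372 TPM in ovaries. LdNA_17576 on chromosome 8 had 19.6, 28.5 and 21.8 TPM in eggs and 192, 405 and 478 TPM in ovaries. LdNA_29838 on chromosome 15 had 16.3, 21.4 and 21.3 TPM in eggs and 197, 488 and 621 TPM in ovaries. In each of the 3 genes the egg values were close to one another and all lay below the lowest ovary. The egg limit of the rule, 10% of the ovary mean, makes a separation of single libraries likely, and its share over all genes was not counted. In 252 of the 254 genes every egg library was below every ovary library. The exceptions were LdNA_25789, with 20.5, 18.2 and 18.1 TPM in eggs and 54.1, 779 and 20.4 TPM in ovaries, and LdNA_4702, with 0, 0.168 and 0.186 TPM in eggs and 54.2, 233 and 0.149 TPM in ovaries. In both, a single ovary, replicate 4, reached down to the egg level.

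The 3 egg libraries did not hold transcripts of the set evenly. No read pair was found for 84 genes in egg replicate 1, for 109 in replicate 2 and for 55 in replicate 4, although replicate 4 was the shallowest of the eggs. Of the 223 genes with a read pair in any egg, 53 were highest in replicate 1, 49 in replicate 2 and 121 in replicate 4. Over all genes of the table seen in eggs, 21.4%, 52.4% and 26.1% were highest in these libraries. Among the genes with an egg mean below 1 TPM the summed level was 29.3, 24.7 and 53.4 TPM in replicates 1, 2 and 4. LdNA_19814 shows this unevenness, with 0 TPM in egg replicates 1 and 2 and 3.18 TPM in replicate 4, against 313 to 701 TPM in ovaries.

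Genes near the limits of the rule show how the set is bounded. LdNA_34139 had the lowest ovary mean inside, 21.1 TPM, and LdNA_29630 the nearest outside, 19.0 TPM. LdNA_24501 was 4.06 times its next group (testes, 15.0 TPM) and was inside, while LdNA_13957, at 3.95 times its level in genital ducts, was outside. The egg mean of LdNA_30062 was 9.92% of its ovary mean and that of LdNA_28770 was 10.1%.

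Outside the ovary, the dissected group with the second highest mean was most often the testis. Testes came second for 108 genes, aedeagus for 37, adult fat body for 20, L4 hindgut for 17, malpighian tubules for 16, L4 hemolymph for 15, L4 midgut for 12, L4 fat body for 11, genital ducts for 8, adult hindgut for 7 and adult midgut for 3. A mean above 1 TPM was reached by 105 genes (41.3%) in testes, against 40 to 67 genes in each of the other dissected groups other than ovaries. Over all genes of the table that share was 72.8% in testes and 54.6% to 66.2% in the others, so testes led for the whole table too. The median ratio of ovary mean to the second group was 111, with 129 genes at 100 or more and 49 below 10.

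The extremes of this ratio belong to different kinds of profile. LdNA_31476 (29.1, 54.8 and 72.3 TPM in ovaries), LdNA_15318 (31.5, 67.6 and 0.520 TPM) and LdNA_9755 (26.1, 58.6 and 78.9 TPM) were listed at 0 in every other dissected group. LdNA_28749 on chromosome 14 averaged 3811 TPM in ovaries and 0.281 TPM in testes, a ratio of 13567. LdNA_15176 on chromosome 7 averaged 246 TPM in ovaries and 0.0186 TPM in adult fat body, a ratio of 13201 that rests on 2 read pairs in female fat body replicate 2, without which it was listed at 0 in every other dissected group. At the other end, LdNA_24501, LdNA_19136, LdNA_24148, LdNA_18264 and LdNA_10637 had ratios of 4.06 to 4.55, with testes, L4 hindgut or genital ducts second. LdNA_19136, for example, averaged 238 TPM in ovaries and 55.5 TPM in L4 hindgut.

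A single fat body library set part of this pattern. Female fat body replicate 2 had a summed level of 830 TPM over the 254 genes, against 206 to 339 TPM in the other 5 adult fat body libraries. LdNA_16353 was at 174 TPM there and at 0 to 0.301 TPM in the other 5, and LdNA_16149 was at 115 TPM there and at 0 to 0.370 TPM in the other 5. Without the 10 most abundant ovary genes the sum in this library was 237 TPM, within the 205 to 339 TPM of the others. When it was left out, adult fat body was second for 9 genes instead of 20, and the rule still selected the same 254 genes. Aedeagus replicates 4 and 5 also held these transcripts, with 63.5 and 78.5 TPM over the 10 genes, against 1.83 TPM in aedeagus replicate 2. The source of these transcripts was not tested.

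The rule used the ovary mean, to which the spread between the 3 females is not unrelated, since 1 very high ovary can carry a gene past the minimum. With medians over libraries in place of means the rule selected 260 genes, of which 242 belong to the set. The ratio of the highest to the lowest ovary had a median of 2.64 in the set, against 2.12 over all 5237 genes with an ovary mean of at least 20 TPM, and 2.47 in the 51 genes kept in eggs. After division by the scaling factors these medians were 1.54, 1.22 and 1.35. On the scaled values 82 of the 254 genes (32.3%) differed 2-fold or more between ovaries, against 8.21% of the 5237 genes, and 14 (5.51%) differed 10-fold or more, against 0.974%. These limits were set after the values had been seen, and with 3 females the differences are a description.

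The scaled values fell into recurring patterns. Ovary replicate 1 was at least 2 times both others in 48 genes (18.9%), against 4.11% of the 5237 genes. These 48 include 8 of the 10 most abundant genes. In 10 genes (3.94%, background 0.554%) replicate 1 was at most 0.5 times both others, as in LdNA_28749, with 1030, 5218 and 5185 TPM as deposited in replicates 1, 2 and 4. In 7 genes (2.76%, background 0.172%) replicate 2 was at least 10 times both others. In 7 genes (2.76%, background 0.286%) replicate 4 was at most 0.1 times both others.

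The widest differences were nearly all or none. LdNA_6677 (chromosome 3) had 2.44, 1300 and 0.655 TPM in ovary replicates 1, 2 and 4, a ratio of highest to lowest of 1984. Its neighbours LdNA_6676, with 1.96, 266 and 1.63 TPM, and LdNA_6675, with 6.40, 664 and 27.6 TPM, were high in the same ovary. The 3 genes lie next to one another within 51.3 kb. LdNA_15558 and LdNA_15560, close together on chromosome 7, had 22.2, 4620 and 3.84 TPM and 35.6, 5993 and 5.48 TPM, again with replicate 2 alone high. LdNA_7259 (chromosome 3) had 0.527, 753 and 1.3 TPM. LdNA_4702 (chromosome 2) had 54.2, 233 and 0.149 TPM, high in 2 ovaries and near 0 in replicate 4. The smallest ratios between ovaries as deposited were those of LdNA_14597, which had 33.4, 36.7 and 37.5 TPM, LdNA_8172, which had 22.5, 24.5 and 31.3 TPM, and LdNA_14472, which had 66.1, 63.9 and 90.2 TPM. After scaling these 3 genes differed by 1.78, 1.56 and 1.75 times, each above the median of 1.54 in the set.

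**Figure D3:**
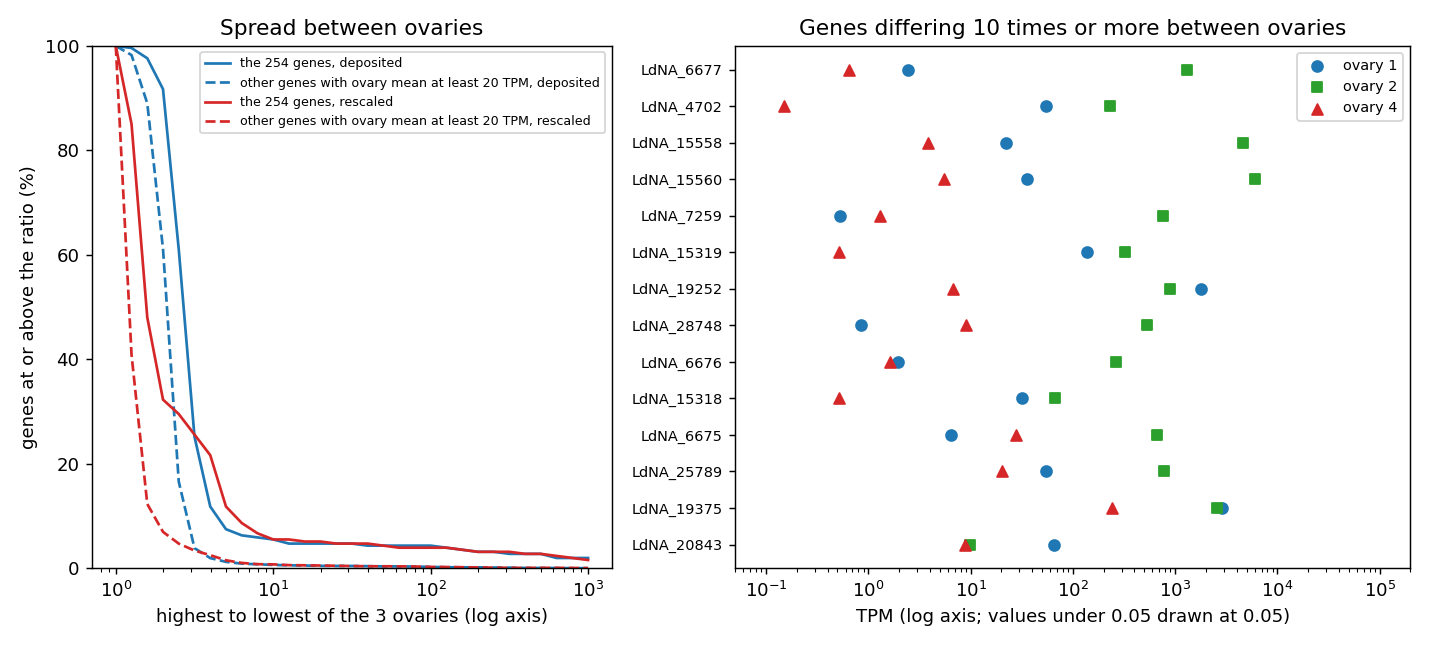
Left, the percentage of genes (vertical) whose highest ovary is at or above a given multiple of the lowest (horizontal, log axis), for the 254 genes (solid) and the other genes with an ovary mean of at least 20 TPM (dashed), as deposited (blue) and rescaled by the median of ratios (red). Right, deposited TPM (log axis) in ovary replicates 1, 2 and 4 of the 14 genes that differ 10-fold or more after scaling, where replicate 2 alone is high in 7 and replicate 4 is far below both others in 7, LdNA_15558 and LdNA_15560 being in both counts.

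Part of the set lay next to each other in the chromosome order of the table. The table leaves out annotated genes that failed its expression filter, so such genes may lie between these neighbours. In the order of the table, 69 genes (27.2%) had another member as direct neighbour, in 25 runs of 2 to 11 genes, against 2.71% of the 15324 other genes. Of the 51 genes kept in eggs none had another such gene as direct neighbour, and 2 (3.92%) had a neighbour in the set. Within 10 kb, 44 genes (17.3%) had a member nearby, against 1.74% of the other genes, and within 50 kb 70 genes (27.6%), against 5.38%. Of the 51 genes kept in eggs, 2 (3.92%) had another such gene within 10 kb and 5 (9.80%) within 50 kb, and as many had a member at these distances. A smaller group has fewer possible neighbours of its own kind, so shares within the 51 genes and within the set are not directly comparable. Of the 44 pairs of adjacent members, 36 (81.8%) lay on the same strand and 25 (56.8%) had the same exon number, against 46.5% and 16.6% of all 15552 adjacent pairs. Libraries were made without strand information, and 13 genes of the set (5.12%, against 8.65% of all genes) overlap a gene on the other strand, so their reads cannot be told from those of that partner.

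The longest run held 11 genes, LdNA_19805 to LdNA_19818, in 147 kb of chromosome 10 (3945399 to 4092844), 10 on the plus strand and 1 on the minus strand. All had 2 or 3 exons, with a median exon length of 450 bp. Their ovary means lay between 31.1 and 537 TPM and their egg means between 0 and 1.06 TPM. LdNA_19814, the highest, had 313, 598 and 701 TPM in ovary replicates 1, 2 and 4, and LdNA_19817, the gene on the minus strand, had 0.408, 0.960 and 1.20 TPM in eggs and 274, 573 and 667 TPM in ovaries. LdNA_19806 and LdNA_19811 had no read pair in eggs, against 181 to 347 TPM and 101 to 191 TPM in ovaries. In all 11 genes replicate 1 was the lowest ovary as deposited. The same held for 75.2% of the set and 92.6% of the 5237 genes with an ovary mean of at least 20 TPM. After scaling the 11 genes differed by 1.13 to 2.14 times between ovaries, with a median of 1.54 in the set. LdNA_19810 and LdNA_19811 overlap on the same strand, so their reads may be divided uncertainly.

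The second run, LdNA_19247, LdNA_19248, LdNA_19250, LdNA_19252 and LdNA_19253 on chromosome 9 (43433448 to 43696080, all on the plus strand), was more uniform in gene structure. Each gene had 9 exons and 1884 to 2075 bp of exon length. Their sequences were not used here, so whether near-identical copies shared reads in the counting is uncertain. LdNA_19247 had 0, 0 and 0.0941 TPM in eggs, against 7333, 3631 and 2514 TPM in ovary replicates 1, 2 and 4. LdNA_19253 had 0.0780, 0 and 0 TPM in eggs and 3229, 1543 and 1571 TPM in ovaries. LdNA_19248 had 1089, 743 and 497 TPM in ovaries, LdNA_19250 had 1098, 397 and 649 TPM, and replicate 1 was the highest ovary in all 5 genes. LdNA_19252 differed from its neighbours in 1 library, with 1810 and 899 TPM in replicates 1 and 2 and 6.81 TPM in replicate 4.

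The next run, LdNA_1550, LdNA_1557, LdNA_1560 and LdNA_1562, covered 362 kb of chromosome 1 on the plus strand. Exon numbers ranged from 2 to 10. LdNA_1550 was the highest, with 0.544, 0.366 and 2.44 TPM in eggs and 321, 749 and 627 TPM in ovaries, and LdNA_1557 the lowest, with 0 TPM in all eggs and 12.5, 30.9 and 20.1 TPM in ovaries. Ovary replicate 2 was the highest in all 4 genes. Another run of 4 genes, LdNA_17815 to LdNA_17818 on chromosome 8, consisted of genes of 1 exon with ovary means of 37.3 to 188 TPM.

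**Figure D4:**
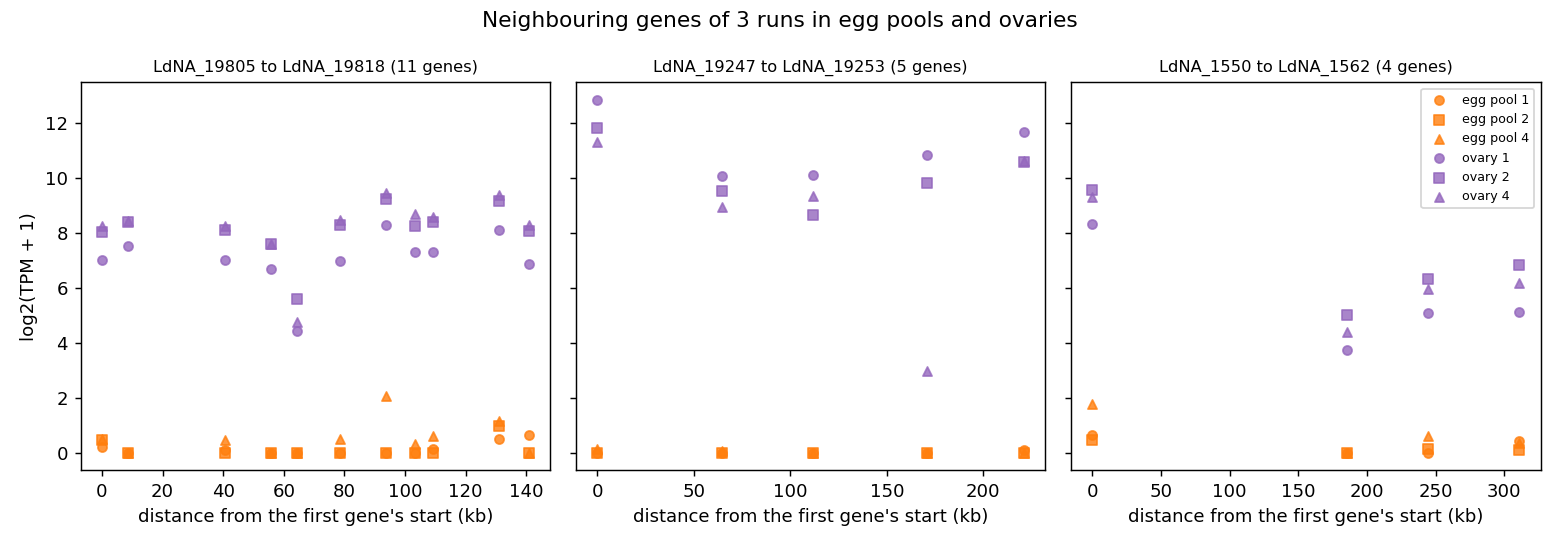
Level (log2(TPM + 1)) of each gene of 3 runs against the distance of its start from that of the first gene (kb), in 3 egg libraries (orange) and 3 ovaries (purple). Ovary replicate 1 is the lowest ovary throughout the first run, as in most genes of the set, and the highest throughout the second, with LdNA_19252 in ovary replicate 4 as the one low point.

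Genes of the set were shorter and had fewer exons, at the median, than ovary genes in general. Their median exon length was 1245 bp with 3 exons, against 1567 bp and 5 exons in the 51 genes kept in eggs, 1534 bp and 5 exons in all genes with an ovary mean of at least 20 TPM, and 1209 bp and 4 exons in the whole table. Genes of 1 exon made up 18.9% of the set, against 11.8%, 8.46% and 17.0% of these 3 groups. Chromosome 18 held 17 members, 3.89% of its 437 genes, chromosome 8 held 30 (2.70%), and chromosome 13 held 2 (0.285%). These were the extremes, and the other chromosomes lay between 0.820% and 2.21%. Chromosomes 18, 8 and 13 held 6.69%, 11.8% and 0.787% of the set, against 2.81%, 7.13% and 4.50% of all genes. Members in runs are counted singly here, and no test was made.

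Whether the low levels outside the ovary differ between the sexes was tested in the 4 tissues taken from both, since the rule used only the mean over both sexes. Between 50 and 73 of the 254 genes passed the filter of more than 1 TPM in at least 2 libraries of a model, and the others were too low to test. In fat body 0 of 60 tested genes differed between females and males (limma on log2(TPM + 1), Benjamini-Hochberg adjusted p over all genes tested below 0.05; background 0.0721% of 9706 genes), with 6 at an unadjusted p below 0.05, and without male replicate 7 it was 2 of 58 (3.45%), against 3.41% of all genes in that fit. In midgut 0 of 50 differed (limma, background 0.219% of 10056 genes, 0.119% higher and 0.0994% lower in females), with 3 at an unadjusted p below 0.05. In hindgut 0 of 73 differed (limma, background 0.0634% of 11041 genes), with 1 at an unadjusted p below 0.05. The median female minus male difference in log2(TPM + 1) was -0.11 in fat body and -0.23 in midgut, against -0.16 and -0.28 over all genes tested, and after median-of-ratios scaling 0 genes of the set were called in either tissue.

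In malpighian tubules, the excretory organ, 1 of 56 genes differed (background 0.397% of 9325 genes, 0.257% higher and 0.139% lower in females). LdNA_21297 (chromosome 10, 51480016 to 51486960, 4 exons) had 2.07, 5.87 and 3.97 TPM in female tubules, against 25.3, 48.7 and 30.9 TPM in male tubules. The groups did not overlap, and the female minus male difference was -2.88 ± 0.37 (SE) on the log2(TPM + 1) scale with a limma adjusted p of 0.0378. The call was lost without the filter on low values (limma adjusted p = 0.26), after median-of-ratios scaling (difference -2.98, limma adjusted p = 0.058), and without female replicate 3 (adjusted p = 0.0941), male replicate 3 (0.064), male replicate 4 (0.148) or male replicate 5 (0.0744), by limma in each case. The same gene had 0.699 TPM in female and 0.0627 TPM in male fat body, 0 and 0.170 TPM in midgut and 0.0611 and 0.682 TPM in hindgut, against 189 ± 85.4 TPM (SD, n = 3) in ovaries. In the tubule fits without male replicate 3 and without male replicate 5, 1 other gene of the set was called lower in females. In these fits 0.306% and 0.695% of all genes were called.

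A test of whether the sex difference varies between the 4 tissues (limma interaction F test) found 2 of 88 genes, with a background of 0.857% of 11908 genes. Without male fat body replicate 7 it found 5 of 88 (5.68%), against 9.04% of all genes. The first was LdNA_21297 (limma adjusted p = 0.0023). The second was LdNA_34132 on chromosome 18 (adjusted p = 0.0006, limma), with 0, 0.184 and 0.127 TPM in female tubules and 3.30, 12.2 and 7.30 TPM in male tubules, and at most 0.276 TPM in any library of the other 3 tissues. LdNA_34132 passed the filter on low values only through male tubules, the group where it was high. Its own sex difference in tubules did not pass (difference -2.82, limma adjusted p = 0.0708). The interaction test treated libraries of different tissues as independent, and whether some came from the same beetle was not checked.

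Differences between the L4 larva and the adult were tested in 3 tissues, as these groups were only capped by the rule. In fat body 7 of 60 genes (11.7%) differed, 5 higher and 2 lower in L4, against 9.30% of all genes tested (5.54% higher and 3.76% lower). LdNA_19136 had 22.4, 15.2 and 13.8 TPM in the 3 L4 libraries, against 0.112 to 4.56 TPM in the 6 adult libraries (difference 3.04 ± 0.45 SE, limma adjusted p = 0.00469). LdNA_22813 averaged 4.89 ± 3.10 TPM (SD, n = 3) in L4 and was at 0 in 5 of 6 adult libraries (difference 2.38, limma adjusted p = 0.00271). LdNA_5212 had 5.55, 2.00 and 7.20 TPM in L4 and at most 1.16 TPM in adults (difference 2.16, limma adjusted p = 0.00932). LdNA_6997 fell to 1.63 TPM in L4, against 9.04 TPM in adults (difference -1.84, limma adjusted p = 0.0209), and LdNA_17706 to 0.262 TPM in L4, against 3.52 TPM in adults (difference -1.69, adjusted p = 0.0349). LdNA_22813 and LdNA_5212 passed the filter on low values only through L4, and LdNA_17706 only through adults. The call of LdNA_6997 was lost when any L4 library or female replicate 3 or 6 was left out (limma adjusted p 0.0521 to 0.0832), and that of LdNA_17706 when any library other than male replicate 7 was (0.0536 to 0.118). The count for fat body was 15 without adult male replicate 7, where 23.8% of all genes were called, 4 without L4 white fat body replicate 1 or 3 (4.67% and 4.83% of all genes), and 11 of 61 after scaling, 5 higher and 6 lower, against 16.7% of all genes (8.42% higher and 8.25% lower).

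In midgut 33 of 50 genes (66.0%) differed, 27 higher and 6 lower in L4, close to the background of 69.4% of all genes tested (61.6% higher and 7.78% lower). The midgut libraries differed in composition, with a median L4 minus adult difference of 0.82 over all genes tested and 0.57 over the set. After median-of-ratios scaling the medians were 0.03 and -0.20, and 21 of 52 genes differed, 8 higher and 13 lower, against 52.6% of all genes (26.8% higher and 25.9% lower). The genes with the smallest adjusted p held under both. LdNA_25789 had 56.7, 58.2 and 54.1 TPM in L4 midgut, against 4.57 to 10.0 TPM in the 6 adult midguts (difference 2.83 ± 0.13 SE, limma adjusted p = 1.1e-06, and 1.91 after scaling). LdNA_30822 (chromosome 16) had 118, 142 and 134 TPM in L4, against 7.38 to 19.5 TPM in adults (difference 3.20 ± 0.20 SE, limma adjusted p = 4.8e-06, and 2.26 after scaling). These 2 genes showed no overlap between the stages. LdNA_19136 was again higher in L4, at 9.0 TPM against 1.73 TPM in adults (difference 1.88, limma adjusted p = 9.1e-05, and 1.12 after scaling). LdNA_15041 averaged 0.106 TPM in L4 and 3.20 TPM in adults, LdNA_22930 averaged 11.5 and 23.3 TPM and LdNA_34069 averaged 0.122 and 1.11 TPM, with differences of -1.88, -0.96 and -0.91 (limma adjusted p = 0.000419, 0.00331 and 0.00428). LdNA_15041 and LdNA_34069 passed the filter on low values only through adults.

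In hindgut 4 of 73 genes (5.48%) differed, 3 higher and 1 lower in L4, against 7.44% of all genes tested (2.98% higher and 4.47% lower). LdNA_16533 (chromosome 8) had 9.36, 42.1 and 33.8 TPM in L4, against 0.323 to 2.84 TPM in the 5 adult hindguts (difference 3.41 ± 0.47 SE, limma adjusted p = 0.00618). LdNA_11195 and LdNA_23807 were higher in L4, with means of 1.34 and 6.62 TPM against 0.0141 and 0.804 TPM in adults, and LdNA_7477 was lower, with 0.305 TPM against 1.92 TPM. These 3 calls had limma adjusted p of 0.0295, 0.0306 and 0.0492. LdNA_23807 passed the filter on low values only through L4, and LdNA_7477 only through adults. LdNA_7477 lost its call without any library other than L4 replicate 1 (limma adjusted p 0.0665 to 0.191) and after scaling (0.0615). LdNA_11195, which passed the filter only through L4, lost it without either adult female or male replicate 5 (0.0657 to 0.0993) and could not be tested without L4 replicate 4 or 5, and LdNA_23807 without any L4 library or male replicate 3 or 5 (0.0535 to 0.117). After scaling 4 of 74 genes differed, all higher, against 7.40% of all genes (3.93% higher and 3.47% lower). The count dropped to 1 without L4 replicate 4, L4 replicate 5 or adult male replicate 5 (2.89%, 3.09% and 4.93% of all genes) and to 2 without adult female replicate 1 (4.30%).

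Whole larvae took no part in the selection. The rule did cap the L4 tissues, so low levels in younger larvae need not be independent of it. In 175 of the 254 genes the mean of each of L1, L2 and L3 was below 1 TPM, and in 18 genes at least 1 instar exceeded 10 TPM. Means above 1 TPM were found for 23.6%, 25.98% and 25.2% of the set in L1, L2 and L3. Over all genes these shares were 67.6%, 67.6% and 64.9%. Means above 10 TPM were found for 4.72%, 3.54% and 4.33% of the set, against 39.7%, 41.2% and 35.95% of all genes. The set's sum was 465 to 517 TPM in L1, 393 to 420 TPM in L2 and 278 to 504 TPM in L3. The highest larval means were those of LdNA_30822 (32.0 TPM over the 9 larval libraries), LdNA_16166 (29.3 TPM) and LdNA_24148 (28.9 TPM). The most abundant ovary gene, LdNA_16353, was at 0 in all 9.

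Of 77 genes that could be tested in larvae, 12 (15.6%) differed between L2 and L1, 3 higher and 9 lower in L2, against 10.7% of all genes tested (5.06% higher and 5.68% lower). Leaving out single libraries moved this count between 5 and 16, and the share of all genes moved with it. It was 5 without L1 replicate 2, L2 replicate 4 or L2 replicate 5 (6.51%, 7.65% and 6.76% of all genes), 7 without L1 replicate 5 (5.63%) and 16 without L3 replicate 5 (18.9%). Between L3 and L2 35 genes (45.5%) differed, 10 higher and 25 lower in L3, against 46.4% (9.11% higher and 37.3% lower), and between L3 and L1 32 genes (41.6%), 7 higher and 25 lower, against 44.6% (9.75% higher and 34.8% lower). After scaling 13 of 76 genes differed between L2 and L1, 3 higher and 10 lower, against 12.3% (5.06% higher and 7.21% lower). The counts were 23 for L3 against L2 without L2 replicate 5 (37.3% of all genes) and 21 without L3 replicate 4 (38.0%), and 18 for L3 against L1 without L1 replicate 2 (35.4%) and 21 without L3 replicate 4 (37.5%). The L3 libraries lay lower over all genes, with median differences of -0.41 to L2 and -0.33 to L1. After scaling 15 genes were higher and 14 lower in L3 than in L2, against 41.8% of all genes (21.1% higher and 20.8% lower), and 17 were higher and 19 lower in L3 than in L1, against 44.4% (21.2% higher and 23.3% lower). The shares called lay near those of the table as a whole.

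The genes with the smallest adjusted p in larvae showed separate courses. LdNA_34164 (chromosome 18) had 11.5, 10.1 and 13.6 TPM in L1, 2.30, 1.90 and 1.60 TPM in L2 and 0, 0.685 and 0.0818 TPM in L3, against 283 TPM in ovaries. It fell by 2.12 on the log2(TPM + 1) scale in L2 relative to L1 (limma adjusted p = 0.000902) and by 3.37 in L3 relative to L1 (limma adjusted p = 2.5e-05). LdNA_16166 averaged 54.8 ± 4.57 TPM in L1, 20.2 ± 5.13 TPM in L2 and 12.8 ± 2.81 TPM in L3 (SD, n = 3 each), and LdNA_34139 averaged 5.50, 1.66 and 0.107 TPM in these instars. No library overlapped between L1 and L3 in these 3 genes, and the L3 minus L1 differences were -2.04 and -2.54 in LdNA_16166 and LdNA_34139 (limma adjusted p = 0.00015 and 0.000157). LdNA_24148 averaged 43.7, 23.0 and 19.9 TPM in L1, L2 and L3 (L2 minus L1 -0.91, limma adjusted p = 0.00671).

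Other genes rose. LdNA_19136 averaged 3.30 ± 0.227 TPM in L1, 6.46 ± 0.276 TPM in L2 and 17.3 ± 4.90 TPM in L3 (SD, n = 3 each; L3 minus L1 2.05, limma adjusted p = 0.000124, and 2.40 after scaling). LdNA_16126 averaged 0.0251, 0.0757 and 2.84 TPM (L3 minus L2 1.80, limma adjusted p = 0.000286), LdNA_6663 averaged 0.134, 0.0314 and 2.29 TPM (L3 minus L2 1.63, adjusted p = 0.000653) and LdNA_14597 averaged 1.70, 2.40 and 6.5 TPM (L3 minus L1 1.45, adjusted p = 0.000743). LdNA_16126 and LdNA_6663 passed the filter on low values only through L3. LdNA_18279 was at 22, 27.2 and 6.74 TPM in L1, L2 and L3 (L3 minus L2 -1.93, limma adjusted p = 0.000435). LdNA_11055 and LdNA_14583 were highest in L2, with 0.409, 4.60 and 0 TPM and 3.92, 8.09 and 2.63 TPM in L1, L2 and L3. For both, the rise in L2 over L1 (1.97 and 0.88, limma adjusted p = 0.00454 and 0.00931) and the fall in L3 relative to L2 (-2.42 and -1.33, adjusted p = 0.000369 and 0.000298) passed. With a replicate block 0 genes of the set were called higher and 2 lower in L2 than in L1, so both rises lost their call. LdNA_11055 passed the filter on low values only through L2.

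**Figure D5:**
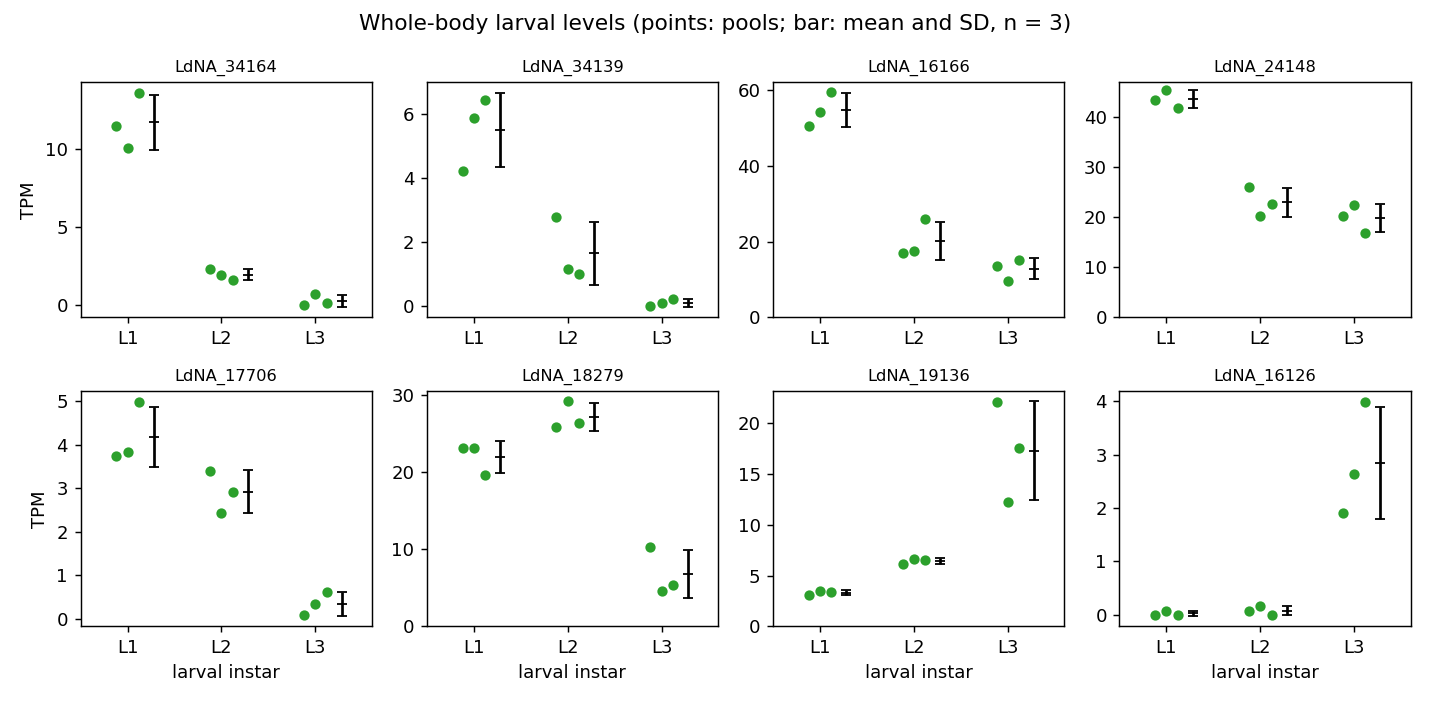
TPM of 8 genes of the set in the pools of L1, L2 and L3 larvae (points; the bar gives the mean and SD, n = 3). The first 5 genes are highest in L1, LdNA_18279 is lowest in L3, and LdNA_19136 and LdNA_16126 are highest in L3.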

How the data were processed

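The deposited table holds TPM values of 61 libraries, computed by the authors. Per the methods, poly-A selected, non-directional paired-end reads were trimmed with Trimmomatic, checked with FastQC 0.11.9, mapped with STAR to a chromosome-level assembly and counted per gene with featureCounts (Subread 2.0.5). Genes above 1 TPM in at least 2 samples were kept. No source used here gives the name of that assembly. The fold changes in the text were computed from the deposited TPM. Multiplying TPM by gene length gave whole read pairs (100% of values within 0.01), used for depth and detection limits only, which cover counting error alone.

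The genes and lists were chosen with earlier results of these data known. Group means left out female hindgut replicate 5 and yellow fat body replicate 4. Contrasts that the selection did not use were tested with limma 3.58.1 (R 4.3.3) on log2(TPM + 1), which understates changes of low genes, with empirical Bayes trend, two-sided, over genes above 1 TPM in at least 2 libraries of the model, with Benjamini-Hochberg adjustment over all genes tested (threshold 0.05). P-values measure the spread between these libraries. Python 3.11.15, pandas 2.3.3 and numpy 2.4.6 did the rest. The tests were checked on simulated data.

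Named genes were the 10 with the highest ovary mean, the 5 most and 3 least variable between ovaries, the 5 smallest and 5 largest ratios to the next group, the 3 highest in larvae and in eggs, up to 3 per direction and comparison by adjusted p, those next to each limit, and the 3 longest runs. Other genes named (in the text on variation between ovaries, on eggs passing the lowest ovary and on yellow fat body) were chosen after their values were seen. Alternatives were the limits of the rule, medians, the removed libraries, scaling, pseudocount 0.1, no filter, a replicate block and leaving out each library.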

Additional observations from a re-analysis of the deposited data

Results flagged for a closer look

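Female fat body replicate 2 stood apart from the other 5 adult fat body libraries in the summed level of the set (830 TPM, against 206 to 339 TPM) and in 9 of the 10 most abundant ovary genes. It held 174 TPM of LdNA_16353, 33.1 TPM of LdNA_15163, 115 TPM of LdNA_16149, 91.0 TPM of LdNA_19852, 54.2 TPM of LdNA_17325, 39.0 TPM of LdNA_29990, 79.6 TPM of LdNA_2724, 2.74 TPM of LdNA_2725 and 4.21 TPM of LdNA_27788, where the other 5 held at most 4.2 TPM of any of these. Female malpighian tubule replicate 3 was low in the summed level, at 365 TPM against 423 to 444 TPM in the other 5 tubule libraries. A gap past the limit used (a 95% limit for single groups) arises by chance in about 1 of 20 groups, and 14 sets of values were examined. These were the summed levels in adult fat body, midgut, hindgut and tubules, and each of the 10 genes in adult fat body. The 10 genes share the same fat body libraries, so the 14 are not independent.

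The sex difference varied between tissues in LdNA_34132 (limma interaction adjusted p = 0.000600) and LdNA_21297 (limma interaction adjusted p = 0.0023), each higher in male than in female malpighian tubules. LdNA_34132 passed the filter on low values only through male tubules.

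Yellow fat body replicate 4, one of the libraries removed from the atlas, had a summed level of 802 TPM, against 248 to 293 TPM in the other 3 L4 fat body libraries. LdNA_13628 was at 81.6 TPM there and at 0.766 to 27.3 TPM in the other 3, and LdNA_4786 at 62.0 TPM there and at 0 in the other 3.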

How the results depend on the processing

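The size of the set ranged from 216 to 281 genes under the planned limits, medians, scaling and kept-in libraries, and from 238 to 280 when each ovary or egg library was left out. After median-of-ratios scaling the number of members called was 11 for the fat body stage difference, 21 for the midgut stage difference and 0 for the tubule sex difference, and the median ratio between ovaries was 1.54. Without the filter it was 1 for the hindgut sex difference, 0 for the tubule sex difference and 4 for the interaction, and with a pseudocount of 0.1 it was 2 for the tubule sex difference. Neighbours within 10 kb were found for 44 genes. Leaving out single libraries gave 0 to 2 genes for the sex difference in fat body and 0 to 1 in tubules, 4 to 15, 26 to 31 and 1 to 6 for the stage difference in fat body, midgut and hindgut, 5 to 16, 21 to 39 and 18 to 39 for L2 against L1, L3 against L2 and L3 against L1, and 2 to 5 for the interaction. The 2 in fat body sex differences arose without male replicate 7, as did the 5 in the interaction. Sex differences in midgut and hindgut gave 0 each time. In the midgut and larval models, the ones checked, same-numbered libraries did not deviate together (correlations of deviations -0.06 to 0.13), and whether same-numbered libraries of different tissues came from 1 beetle was not checked. A replicate block left 2 genes for L2 against L1, 26 for L3 against L2 and 0 for the midgut sex difference. The highest adult fat body sum was 339 TPM without female replicate 2, an alternative chosen after seeing the data. No named gene changed direction under any alternative run, and calls of named genes were lost in 3 of 34 cases after scaling, 6 of 34 without the filter, 2 of 34 with pseudocount 0.1, 4 of 12 with a replicate block and 38 of 297 when a library was left out. Levels near 1 read pair limit the precision of egg and larval values.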
